A study of Mus musculus with 4 samples.

Results

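Integrins are cell surface receptors built from 1 alpha and 1 beta chain, and 10 integrin subunit genes were followed here across infarcted mouse hearts: Itga5, Itga6, Itga7, Itga11, Itgav, Itgam and Itgax, which encode alpha chains, and Itgb1, Itgb2 and Itgb5, which encode beta chains. They were chosen by gene symbol, with earlier results of these data known, as 10 of the 21885 genes in the deposited matrices. All 10 had UMIs (unique molecular identifiers, each marking 1 captured transcript) in every section. Their counts beside the share of all genes are therefore a description. Spatial transcriptomes (10x Genomics Visium) were made from 1 section of each of 4 hearts: a control heart, a heart at 3 days post infarction (dpi) and hearts at 5 dpi of which the labels call 1 female and 1 male. The control and 3 dpi hearts are labelled female. Every heart, the control included, carried the Collagen1a1-GFP+ genotype, a reporter driven by a collagen promoter, and came from mice aged 8-12 weeks. Infarction was induced by permanent ligation of the left anterior descending artery. The question was where in the infarcted heart, and in company of which cells, each integrin chain is transcribed.

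The chains work in pairs, and some have more than 1 partner. The alpha 5, 6, 7 and 11 chains pair with beta 1, and give the fibronectin receptor of fibroblasts and many other cells (Itga5), laminin receptors (Itga6 and, in muscle, Itga7) and a collagen receptor of fibroblasts (Itga11). The alpha v chain pairs with beta 1, beta 5 and other beta chains, binds RGD-containing matrix proteins such as vitronectin, fibronectin and osteopontin, and can release TGF-beta from its latent form. The alpha M and alpha X chains (CD11b and CD11c) pair with beta 2 and are carried by macrophages, monocytes, neutrophils and dendritic cells, where they bind complement fragments, fibrinogen and ICAM proteins. A Visium spot covers several cells, so that a level in a spot is that of a mixture, and fewer cells of a type and less RNA per cell cannot be told apart.

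The promoters of Itgam, Itgax and Itga11 are shown because they belong to the myeloid alpha chain genes, which neighbour each other on chromosome 7, and to the collagen-binding chain that differed most between time points. Each runs from 250 bases before to 50 after the RefSeq transcript start (GRCm38.p6), on the strand of the gene. Capitals mark matches on either strand to 4 motifs that were searched: GAGGAA, a core bound by PU.1 and other ETS factors, TGACTCA, an AP-1 motif, CATTCC, the core bound by TEAD factors, and GGGGCGGGG, a GC box.
Itgam, chr7:128062390-128062689, plus strand: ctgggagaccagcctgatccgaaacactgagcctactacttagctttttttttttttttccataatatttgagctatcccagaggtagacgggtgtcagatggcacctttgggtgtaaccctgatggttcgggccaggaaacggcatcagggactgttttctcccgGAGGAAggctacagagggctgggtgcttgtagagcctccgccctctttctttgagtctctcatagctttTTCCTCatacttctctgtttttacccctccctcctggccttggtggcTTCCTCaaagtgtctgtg
Itgax, chr7:128129300-128129599, plus strand: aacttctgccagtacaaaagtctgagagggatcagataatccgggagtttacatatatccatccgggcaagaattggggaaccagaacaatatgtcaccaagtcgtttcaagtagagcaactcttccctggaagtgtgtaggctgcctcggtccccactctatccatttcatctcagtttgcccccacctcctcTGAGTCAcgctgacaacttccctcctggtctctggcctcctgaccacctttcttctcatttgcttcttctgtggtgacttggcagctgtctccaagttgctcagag
Itga11, chr9:62677605-62677904, plus strand: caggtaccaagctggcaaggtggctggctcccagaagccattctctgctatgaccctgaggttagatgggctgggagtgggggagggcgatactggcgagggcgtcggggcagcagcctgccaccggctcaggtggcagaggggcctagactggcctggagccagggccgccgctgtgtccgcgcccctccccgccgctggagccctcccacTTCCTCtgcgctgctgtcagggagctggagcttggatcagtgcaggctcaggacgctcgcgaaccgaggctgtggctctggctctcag
GAGGAA was found 3 times in the Itgam window, the first base of each match lying at -84, -15 and 32 from the start, and once in the Itga11 window, at -38. TGACTCA was found once in the Itgax window, at -56. Promoters of 7 of the 10 genes were in the table. GAGGAA was also in the windows of Itga5, Itgav and Itgb1, where CATTCC overlaps it, and GGGGCGGGG was in that of Itgb5. Among 32851 promoters of this length, 28.3% held GAGGAA, 5.2% TGACTCA, 14.7% CATTCC and 11.4% GGGGCGGGG.

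The sections kept 1146 (control), 1741 (3 dpi), 1535 (5 dpi, labelled female) and 1423 spots (5 dpi, labelled male), with medians of 4967.5 to 6935 UMIs per spot. All 12 cardiomyocyte markers were detected in each section, and their summed level was 101300 counts per 1000000 non-mitochondrial UMIs (CPM) in the control and between 19810 and 45260 CPM in the infarcted sections. The sex labels of the 5 dpi sections went against the Y-linked genes: 4 such genes had 704 UMIs in the section labelled female and 1 UMI in the section labelled male, so the labels are used here only as names. The kept spots of the 4 sections shared 129 barcodes, which name positions of the common slide layout. Zones were set by cardiomyocyte content. Spots with less than 0.5 times the 90th percentile of their section's cardiomyocyte share formed the infarct zone (IZ) where 10 or more of them touched, and those in smaller patches (23, 41 and 10 spots of the infarcted sections) were left out of the zones. Spots within 2 steps of the IZ formed the border zone BZ2, those at 3 to 4 steps BZ1, and those beyond it the remote zone (RZ).

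In all, 8 of the 10 subunits were at least 2-fold higher in each infarcted section than in the control section, and none was at least 2-fold lower (24.6% of 9304 genes were higher and 5.19% lower by this rule). With 1 control heart this is a description with no test. Itga7 and Itga6, the laminin-binding alpha chains, were the exceptions. Scaling by TMM in place of CPM left 6 of the 8, because Itga11 at 3 dpi was then 1.79-fold and Itgb1 at 3 dpi 1.89-fold the control. The same scaling changed the genes called from 2287 higher and 483 lower to 1461 higher and 1022 lower.

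Among the chains that bind the matrix, Itga5 was at 39.6 CPM in the control (148 UMIs), 155.9 CPM at 3 dpi, and 167.7 and 126.4 CPM in the female-labelled and male-labelled sections of 5 dpi. Itgav had 22.2, 96.8, 127.8 and 102.5 CPM in that order, and its partner Itgb5 at 62.3, 194.5, 360.0 and 267.8 CPM. All infarcted sections lay above the control for these genes, by 3.2- to 4.24-fold for Itga5, 4.37- to 5.76-fold for Itgav and 3.12- to 5.78-fold for Itgb5. Itgb1, the common beta chain, was at 178.2 CPM in the control and at 455.3, 572.3 and 462.1 CPM in the infarcted sections. It was 2.55- to 3.21-fold higher.

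The leukocyte chains were low in the control heart, and both alpha chains were near their detection limit there. Itgb2 had 28 UMIs there (7.48 CPM) and was at 82.0, 121.9 and 87.0 CPM in the infarcted sections, 11.0- to 16.3-fold higher. Itgam, the CD11b chain, had 5 UMIs in the control (1.34 CPM, 95% Poisson interval 0.434 to 3.12) and reached 32.5 CPM in the 3 dpi section and 43.4 and 23.7 CPM in those of 5 dpi. Itgax, the CD11c chain, had 2 UMIs in the control (0.535 CPM, interval 0.0647 to 1.93) and was at 17.3, 19.1 and 16.5 CPM, a ratio to the control of 30.8 to 35.7, with 7.16 and 341 from the ends of the counting intervals. Intervals of this kind cover counting error only. The summed level of 10 macrophage markers was 916.1 CPM in the control and 5369, 9765 and 7207 CPM in the infarcted sections, and that of 7 neutrophil markers 17.4 against 190.3, 228.5 and 150.2 CPM, so both cell types' markers were high in the sections in which these chains were high.

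The laminin-binding alpha chains did not follow them. Itga6 was at 52.9 CPM in the control and at 56.8, 59.9 and 53.0 CPM in the infarcted sections, within 1.13-fold throughout on the CPM scale. Itga7 was at 134.1 CPM in the control, higher at 3 dpi (171.6 CPM) and lower at 5 dpi (116.1 and 119.3 CPM). With TMM scaling the direction at 3 dpi turned, Itga7 being at 0.947 of the control there and at 0.621 and 0.698 at 5 dpi, and Itga6 was at 0.795, 0.812 and 0.786 of it.

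**Figure D1:**
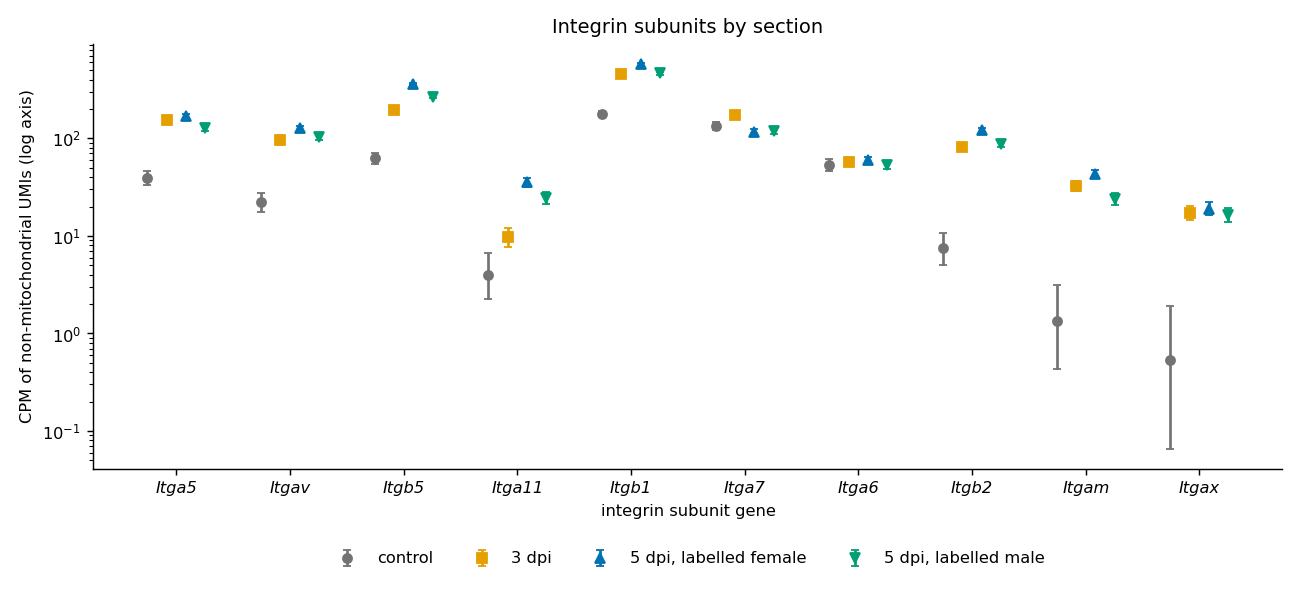
Level of each integrin subunit in the 4 sections, in CPM on a log axis, with 95% Poisson intervals (counting error only). For 8 genes all infarcted sections lie above the control, while Itga7 and Itga6 lie within 1.28-fold of it or below it on this scale (with TMM scaling, below it in each section).

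Between 3 and 5 dpi, Itga11 was the subunit that reached a 2-fold difference in both 5 dpi sections (1.05% of 9304 genes were higher by this rule and 0.344% lower). Its level was 9.67 CPM (81 UMIs) at 3 dpi, and the 5 dpi sections had 35.3 and 24.7 CPM, 3.65- and 2.55-fold higher. Within the IZ the values were 11.6 CPM at 3 dpi against 39.9 and 38.2 CPM at 5 dpi. The GFP reporter transcript had 1923 CPM at 3 dpi against 6389 and 6509 CPM later, and the summed fibroblast markers of the IZ at 5067 against 8750 and 8484 CPM. Their part in the level of Itga11 was not tested, and with 1 heart at 3 dpi time and heart cannot be told apart. Itgb5 was the next, at 1.85- and 1.38-fold, and Itga7 was at 0.677 and 0.695 of its 3 dpi level. The other 7 subunits lay between 0.729- and 1.49-fold of it.

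Zones of the same heart were then compared. In a fit over 12 zone sums with the heart as a block (edgeR's quasi-likelihood test, Benjamini-Hochberg adjustment over 9444 genes), 8 subunits were higher in the IZ than in the RZ, Itga7 was lower and Itga6 was not called. Of all genes tested, 26.8% were higher and 27.0% lower, and the median log2 fold change was 1.32 over the members and 0.05 over all genes. As the members were chosen with earlier results of these data known, this contrast is a description. The 9 calls stood in every alternative run, including the fit without the cardiomyocyte markers and those that left out each heart. The IZ held 684 to 1061 spots and the RZ 200 to 533. The scaling factors lowered every log2 ratio of IZ to RZ by 0.417 relative to CPM, and values below are after that shift.

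The beta 2 integrins of leukocytes are given first. Itgb2 was at 16.6, 23.9 and 12.5 CPM in the RZ of the 3 dpi section and of the 5 dpi sections with the female and the male label, and at 121.2, 148.6 and 140.3 CPM in their IZ. The log2 fold change was 2.63 ± 0.22 (SE, adjusted p = 3.02e-09). Itgax rose by 2.52 ± 0.29 (adjusted p = 3.29e-07) from RZ levels of 3.01, 2.39 and 3.63 CPM that rest on 4, 2 and 9 UMIs, to 25.7, 22.9 and 25.4 CPM. Itgam rose by 2.13 ± 0.24 (adjusted p = 2.57e-07), from 6.02, 8.36 and 7.66 CPM to 48.3, 52.6 and 35.8 CPM. All 10 macrophage markers and all 4 neutrophil markers tested were higher in the IZ too, the former with a median log2 fold change of 1.98. The 1 dendritic cell marker tested was not, and the dendritic list summed to between 16.5 and 20.4 CPM in the IZ and 9.79 to 20.3 CPM in the RZ. The part of each cell type in the 3 genes' rise was not tested by this comparison.

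The matrix-binding chains had smaller fitted changes, and their difference from the beta 2 group was not tested. Itga5 was at 51.2, 71.6 and 58.0 CPM in the RZ and at 209.4, 188.7 and 169.3 CPM in the IZ (log2 fold change 1.24 ± 0.15, adjusted p = 4.2e-07). Itgav went from 34.6, 43.0 and 39.5 CPM to 125.2, 145.8 and 144.7 CPM (1.40 ± 0.15, adjusted p = 7.11e-08). The groups did not overlap for either gene, but the share of all genes of which this holds was not counted. Itgb5 differed more among hearts, with 107.6, 131.3 and 84.2 CPM in the RZ and 222.0, 388.1 and 381.9 CPM in the IZ (1.20 ± 0.18, adjusted p = 1.37e-05). Itgb1 rose least of those called, from 268.7, 314.0 and 286.4 CPM to 546.0, 615.5 and 567.9 CPM (0.57 ± 0.12, adjusted p = 0.000339). Itga11 had 6 to 13 UMIs in each RZ (7.53, 7.16 and 5.24 CPM) and rose by 1.73 ± 0.33 (adjusted p = 0.000137), the 3 dpi heart having the smallest ratio. In the section labelled male its log2 CPM ratio was 2.87, beside 2.22 for Itgam, 2.81 for Itgax and 3.49 for Itgb2. In the other hearts it lay below the ratios of those genes.

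Itga7, the alpha chain of the cardiomyocyte laminin receptor, was at 182.9, 197.0 and 151.1 CPM in the RZ and fell to 146.7, 91.7 and 90.1 CPM in the IZ. The log2 fold change was -1.13 ± 0.15 (adjusted p = 1.83e-06). The zones were set by the cardiomyocyte markers, so their lower level in the IZ follows from the rule and is no result, and the part of cardiomyocyte content in the level of Itga7 was not tested. Per 1000 UMIs of those markers, Itga7 had 1.87, 2.27 and 1.85 UMIs in the RZ and 7.17, 13.6 and 10.4 UMIs in the IZ, the opposite direction to CPM, but the rule that set the zones lowers the divisor in the IZ, so this is a description only. The mural cell markers, a class in which Itga7 is also known, summed to 470.5, 543.3 and 367.0 CPM in the RZ and 279.3, 344.9 and 385.2 CPM in the IZ, and their part was not tested. Itga6 had a log2 fold change of 0.00 ± 0.17 (adjusted p = 0.988), from 34.6, 58.5 and 49.6 CPM in the RZ to 70.9, 61.7 and 57.5 CPM in the IZ.

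**Figure D2:**
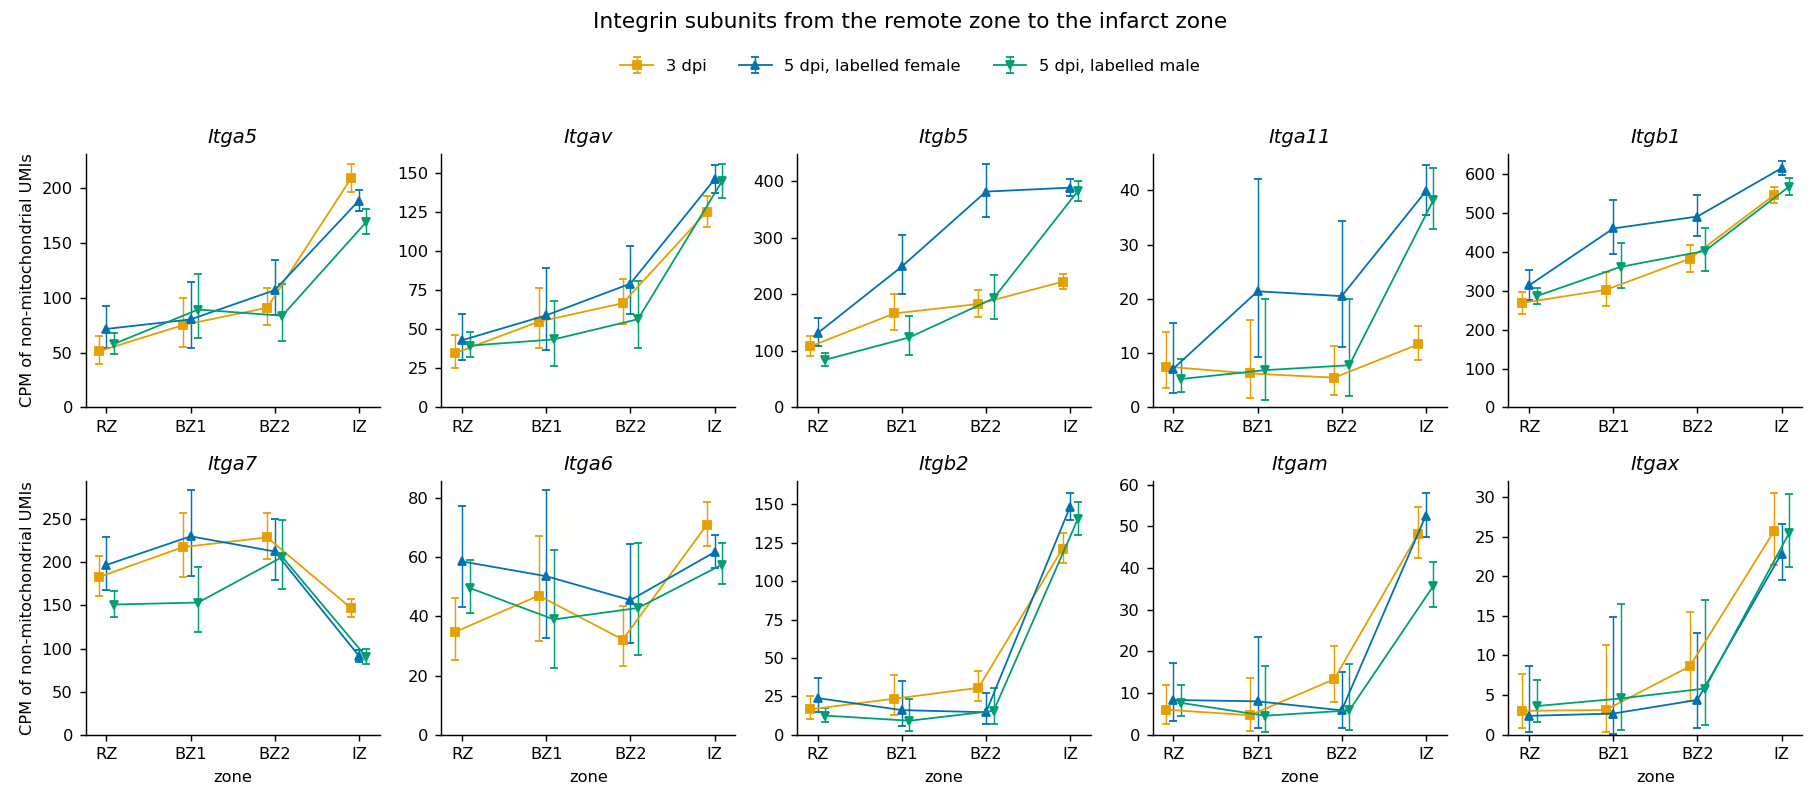
Level of each subunit in CPM (vertical axes, each from 0) in the RZ, BZ1, BZ2 and IZ of the 3 infarcted sections, with 95% Poisson intervals (counting error only). The beta 2 group (Itgb2, Itgam and Itgax) is highest in the IZ and rests on few UMIs outside it. At 3 dpi Itgb2 also climbs before the IZ, with 16.6, 23.5 and 30.6 CPM in RZ, BZ1 and BZ2. Itgb5 and Itgb1 climb across the border zones, and Itga7 is lowest in the IZ.

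The border zone was then compared with the zones on either side. In BZ2 against RZ, 3 subunits were higher and none lower (background 4.21% higher and 4.8% lower of 9444 genes). They were Itgb5 (log2 fold change 1.02 ± 0.19, adjusted p = 0.00181), Itgav (0.64 ± 0.17, adjusted p = 0.0224) and Itgb1 (0.39 ± 0.12, adjusted p = 0.0495), each higher in all 3 hearts. Itga5 (0.49 ± 0.17, adjusted p = 0.0769) and Itgax (0.92 ± 0.46) were also higher in all 3 hearts but not called. Differences between the chains in this step were not tested. Itgb5 was at 182.7, 381.1 and 192.6 CPM in BZ2, its level in the section labelled female already that of the IZ. No subunit was called without the heart as a block or without the section labelled female, where the genes called were 56 and 158 in place of 851. Itgb5 was also called without the 3 dpi section and without the section labelled male, whereas Itgav (adjusted p = 0.134 and 0.0525) and Itgb1 (0.0538 and 0.15) were not. In all, 9 alternatives ended the call of Itgb1 and 5 that of Itgav, DESeq2's test among the latter (adjusted p = 0.0513). Itgb2, Itgam and Itgax had 39, 17 and 11 UMIs in BZ2 at 3 dpi and no more than 10 UMIs in BZ2 of either 5 dpi section, and their adjusted p values were 0.727, 0.94 and 0.293.

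In IZ against BZ2, 6 subunits were higher and Itga7 was lower (background 14.5% higher and 19.9% lower). Itgb2 rose by 2.38 ± 0.24 (adjusted p = 1.06e-07), Itgam by 2.03 ± 0.27 (adjusted p = 5.65e-06) and Itgax by 1.61 ± 0.30 (adjusted p = 0.000224). Itga11 rose by 1.09 ± 0.35, Itgav by 0.76 ± 0.15 and Itga5 by 0.75 ± 0.15, with adjusted p values of 0.0192, 0.00035 and 0.000459. Without the section labelled female or that labelled male, Itga11 was not called (adjusted p = 0.063 and 0.15), nor was it without the block (0.0837). Itgb5 and Itgb1, which had been called between RZ and BZ2, were not called in this step (0.18 ± 0.18 and 0.18 ± 0.12). Itga7 fell by 1.26 ± 0.15 on the log2 scale (adjusted p = 1.52e-06). Its level in BZ2 (228.9, 212.6 and 206.2 CPM) lay above that in the RZ of the same heart. In the fit of BZ2 against RZ that difference was not called (0.13 ± 0.16, adjusted p = 0.713).

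Inside the infarct, spots were also grouped by their steps from its edge, as a description. At 5 dpi the first 2 steps inside the edge already held 44.1 and 39.9 CPM of Itga11, 460.2 and 365.1 CPM of Itgb5 and 620.6 and 597.2 CPM of Itgb1, near or above the levels found over 4 steps inside. The beta 2 group was still low there. Itgam was at 12.3 and 3.80 CPM in those first steps against 60.5 and 41.6 CPM over 4 steps inside, and Itgb2 at 47.6 and 28.5 against 168.0 and 161.6 CPM. At 3 dpi the same step was smaller, with Itgam at 22.6 against 66.6 CPM and Itgb2 at 79.8 against 163.1 CPM. Itga5 was higher further inward in each heart, at 185.2, 123.4 and 123.6 CPM in the first 2 steps and at 246.6, 206.5 and 179.6 CPM over 4 steps inside.

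The cardiomyocyte share of single spots gave a view that uses no zones. Spots of each section were ranked by that share and split into 5 equal groups (quintiles), from the highest (quintile 5) to the lowest (quintile 1). In the control section Itga7 was at 112.3 to 154.6 CPM and Itgb1 at 159.8 to 190.4 CPM across quintiles. The control quintiles covered a narrow range, with median cardiomyocyte shares of 9.02% to 11.4%. Those of the infarcted sections ran from 0.744% to 10.5% at 3 dpi. At 5 dpi they ran from 0.0273% to 8.2% (labelled female) and from 0.0731% to 9.29% (labelled male). In the infarcted sections Itgb2 was 13.9-, 12.6- and 25.3-fold higher in quintile 1 than in quintile 5, Itgam 10.7-, 11.0- and 10.8-fold, Itgav 5.69-, 3.33- and 6.91-fold, and Itga5 5.48-, 3.41- and 4.21-fold. The ratios were 2.24-, 1.7- and 2.33-fold for Itgb1 and 2.22-, 1.61- and 4.84-fold for Itgb5. Itgb1 lay below Itga5 and Itgav in each section, whereas Itgb5 exceeded Itga5 in the section labelled male. Itga7 ran the other way, 2.75-, 6.43- and 5.62-fold higher in quintile 5 than in quintile 1.

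Several subunits peaked between the extremes. Itga7 was highest in quintile 3 at 3 dpi (246.9 CPM) and in the 5 dpi section labelled male (211.4 CPM), above its 176.1 and 150.6 CPM in quintile 5. Itgb5 was highest in quintile 2 at 3 dpi (227.5 CPM) and in the section labelled male (412.3 CPM), and in quintile 3 of the section labelled female (460.8 CPM), against 285.5 CPM in the lowest quintile there. Itga11 had its highest level in quintiles 2, 3 and 2 of the 3 infarcted sections. At 3 dpi quintile 1 was close to quintile 2 for both genes. Itgb5 had 220.1 CPM there, and Itga11 had 13.15 CPM against 13.38 CPM in quintile 2. Itgb2 and Itgam were highest in quintile 1 of all 3, and Itga6 also, at 89.9, 73.1 and 67.8 CPM.

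**Figure D3:**
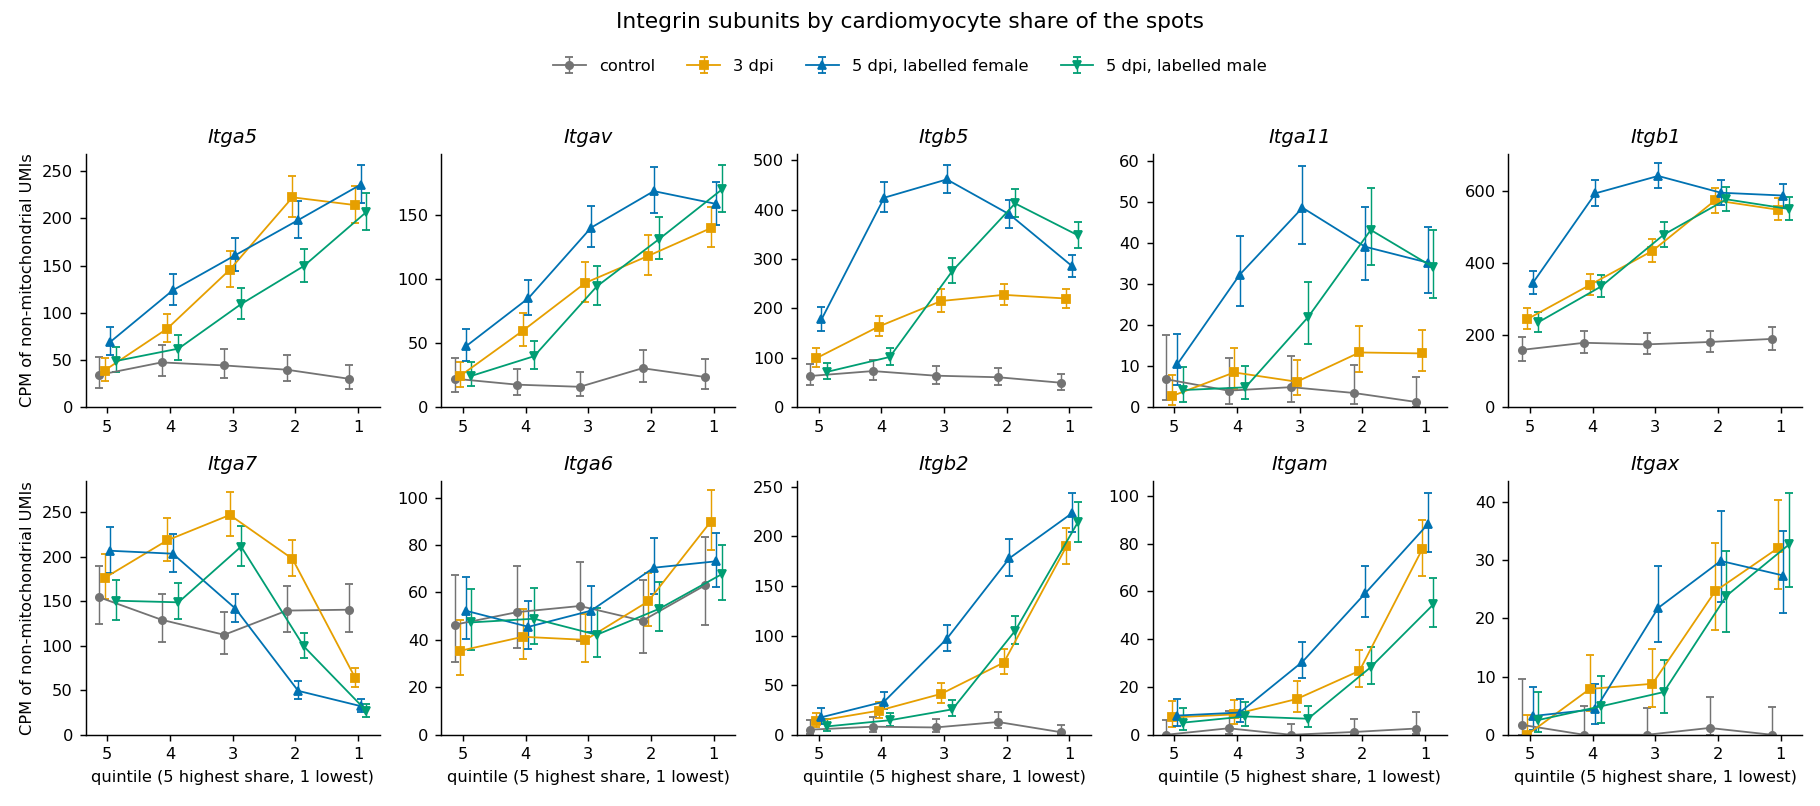
Level of each subunit in CPM (vertical axes, each from 0) in quintiles of the spots of each section by cardiomyocyte share, from the highest share (5) to the lowest (1), with 95% Poisson intervals. The control line stays nearly level, Itgb2 and Itgam climb to quintile 1, Itgb5 and Itga11 are lower there than at their highest in each infarcted section, and Itga7 is lowest there.

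The alpha 5, 6, 7 and 11 chains, a chosen subset of those that pair with beta 1, were also described by their proportions in each zone. Of the UMIs of Itga5, Itga6, Itga7 and Itga11 together, Itga7 made up 58.2% in the control (exact binomial interval 54.8% to 61.5%), 66.2%, 58.9% and 57.3% in the RZ, and 33.4%, 24.0% and 25.4% in the IZ. Itga5 took 17.2% in the control, 18.5%, 21.4% and 22.0% in the RZ and 47.7%, 49.4% and 47.7% in the IZ. In BZ2 the shares of Itga7 were near those of the RZ, at 64.0%, 55.1% and 60.6%. Itga11 made up 2.65% in the IZ at 3 dpi and 10.4% and 10.8% at 5 dpi, whereas Itga6 held 16.1% to 16.2% of the IZ in all 3 hearts. Capture differs between genes, so each share is read across zones and not against another gene's.

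**Figure D4:**
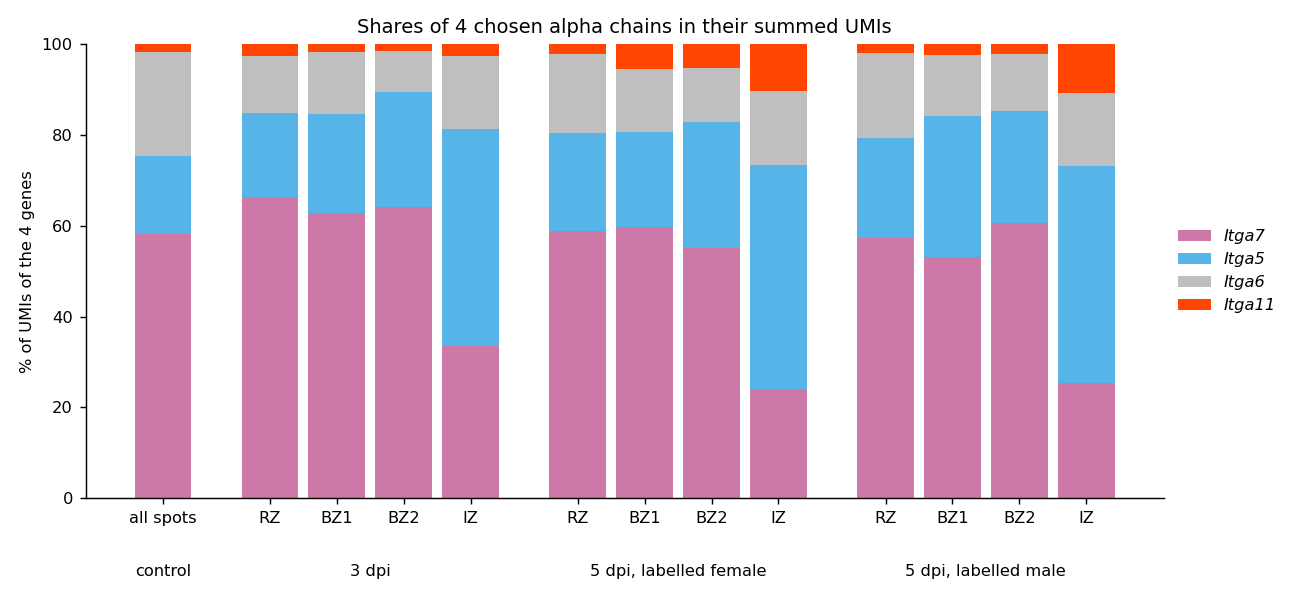
Share of each gene in the summed UMIs of Itga7, Itga5, Itga6 and Itga11 (vertical axis, percent) in the control section and in the zones of the infarcted sections. Itga7 holds 55.1% or more in RZ and BZ2 and 24.0% to 33.4% in the IZ, where Itga5 holds 47.7% to 49.4%.

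Within the IZ, spots were ranked by cell type markers that hold no integrin gene, and 3 equal groups (terciles) were formed, and the highest was tested against the lowest over the 3 hearts, with heart as a block. By macrophage markers, 4 subunits were higher in the marker-rich tercile and 3 lower (background 13.0% higher and 14.8% lower of 10231 genes). Itgam was at 26.3, 19.9 and 16.0 CPM in the macrophage-poor tercile and at 87.8, 79.1 and 55.0 CPM in the rich tercile (log2 fold change 1.78 ± 0.14, adjusted p = 6.4e-08). Itgb2 was at 56.2, 70.9 and 62.0 CPM against 208.3, 215.6 and 227.0 CPM (1.70 ± 0.11, adjusted p = 1.57e-08). The groups did not overlap for either gene, but the share of all genes of which this holds was not counted. Neutrophils also carry these chains, and the summed neutrophil markers were at 118.9, 166.2 and 178.6 CPM in the poor and at 418.3, 353.2 and 295.6 CPM in the rich tercile, with all 4 of those tested called higher. Their part was not tested. Itgax rose by 0.66 ± 0.19 (adjusted p = 0.0141), from 20.9, 16.2 and 13.5 CPM to 31.1, 24.9 and 29.1 CPM, and Itga6 by 0.57 ± 0.12 (adjusted p = 0.00141), from 56.2, 46.6 and 46.6 CPM to 87.2, 76.6 and 68.7 CPM. Platelet markers moved with Itga6 here, summing to 338.9, 312.9 and 380.5 CPM in the poor and 1555, 1166 and 1090 CPM in the rich tercile, and their part was not tested.

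Cardiomyocyte content moved with this ranking, all 12 markers being lower in the macrophage-rich tercile (median log2 fold change -2.73). Itga7 fell by 1.97 ± 0.12 on the log2 scale (adjusted p = 9.5e-09), Itga5 by 0.54 ± 0.10 (adjusted p = 0.000535) and Itgb1 by 0.33 ± 0.10 (adjusted p = 0.0205). The test was also repeated in IZ spots below the median cardiomyocyte share of their section's IZ, where Itgam (1.13 ± 0.18, adjusted p = 0.000837), Itgb2 (1.04 ± 0.13, adjusted p = 0.000109), Itga7 (-1.01 ± 0.21, adjusted p = 0.00469) and Itga5 (-0.89 ± 0.13, adjusted p = 0.000329) stayed past the threshold. In those spots the summed cardiomyocyte markers still differed at 3 dpi, with 11780 CPM in the poor and 6032 CPM in the rich tercile, and were at 541.1 and 896.1 against 678.6 and 979.8 CPM at 5 dpi. The summed smooth muscle markers were also lower in the rich tercile of these spots in each heart (357.9, 742.8 and 474.3 against 192.5, 322.1 and 242.8 CPM), as were the endothelial markers (983.3, 695.4 and 855.8 against 657.0, 444.4 and 649.9 CPM). The part of these cell types in the lower Itga5 and Itga7 was not tested. Itgax turned to -0.43 ± 0.22 there (adjusted p = 0.269), and Itga6 was at 0.51 ± 0.17 (adjusted p = 0.0707). DESeq2's Wald test on all IZ spots kept Itgam, Itgb2, Itga7 and Itga5 and lost Itgax, Itga6 and Itgb1. Without the section labelled female or that labelled male, Itgax (adjusted p = 0.0722 and 0.089) and Itgb1 (0.184 and 0.0669) were not called. Whether Itgax and Itgam differ in their relation to macrophage markers was not tested.

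By fibroblast markers, Itga11 was higher in the marker-rich tercile and Itgam and Itga5 were lower (background 2.61% higher and 1.04% lower of 10256 genes). Itga11 was at 9.18, 24.3 and 20.3 CPM in the fibroblast-poor tercile and at 12.9, 54.1 and 56.3 CPM in the rich tercile. The rise of 1.17 ± 0.18 (adjusted p = 0.00309) rested mostly on the 5 dpi hearts, with CPM ratios of 1.16 and 1.47 on the log2 scale against 0.49 at 3 dpi. Itgam fell from 72.1, 77.4 and 44.6 CPM to 37.5, 34.4 and 23.2 CPM (-1.04 ± 0.13, adjusted p = 0.000963), and Itga5 from 241.9, 214.1 and 204.3 CPM to 192.5, 162.8 and 143.5 CPM (-0.41 ± 0.10, adjusted p = 0.0431). No macrophage marker of 10 was called in this ranking, and none of the 5 neutrophil markers tested was. The summed neutrophil markers were at 452.9, 383.9 and 210.7 CPM in the poor and at 215.5, 206.2 and 247.0 CPM in the rich tercile. All 4 erythroid and both platelet markers tested were called lower in the rich tercile, although the summed erythroid level of the section labelled male was 8949 CPM in the poor and 9649 CPM in the rich tercile. The part of these cell types in the lower Itgam was not tested. DESeq2 kept Itgam alone (adjusted p = 0.0121; Itga11 0.0701), and none of the 3 was called without the block, where 0 genes were called by edgeR at all. Without the section labelled female, Itga5 was not called (adjusted p = 0.272), and without the 3 dpi section Itga7 was called lower (-0.61, adjusted p = 0.00114). Itgb1 was level between the terciles, at 544.0, 606.8 and 582.2 against 550.2, 594.9 and 569.3 CPM.

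By endothelial markers, no subunit was called (background 0.884% higher and 0.238% lower of 10071 genes). Itgam and Itgb2 had unadjusted p values of 0.00208 and 0.00664 in edgeR's quasi-likelihood test, both toward lower levels in the endothelial-rich tercile (-0.52 ± 0.13 and -0.39 ± 0.12), and these were 0.108 and 0.203 after Benjamini-Hochberg adjustment. Without the 3 dpi section Itgb2 was called (-0.58, adjusted p = 0.00987). Itga6, which endothelial cells are known to carry, differed by 0.04 ± 0.14.

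**Figure D5:**
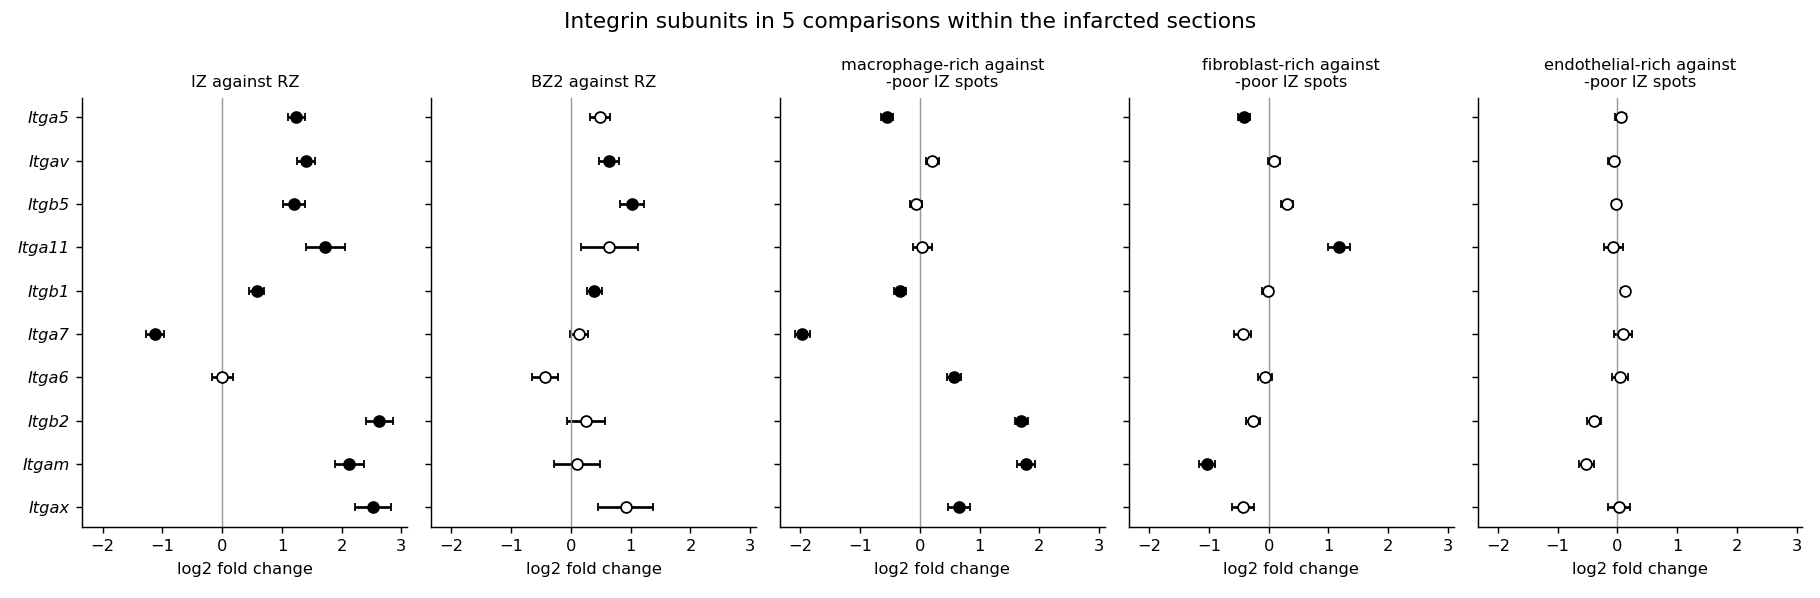
Log2 fold change of each subunit (horizontal axis) with its standard error in 5 comparisons fitted over the 3 infarcted hearts with edgeR. Filled points have an adjusted p under 0.05. Itgb2 and Itgam are filled on the right with the IZ and with macrophage markers, Itga11 with the IZ and with fibroblast markers, and Itga7 is filled on the left with the IZ and with macrophage markers.

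The balance within the myeloid pair was compared in the IZ. Itgax made up 34.7% of the summed Itgax and Itgam UMIs in the IZ at 3 dpi (exact interval 29.8% to 39.8%), and 30.3% (26.5% to 34.2%) and 41.6% (35.9% to 47.4%) at 5 dpi. The intervals of the 5 dpi hearts did not overlap, so hearts of 1 time point differed by more than counting error.

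There were 16 other integrin genes in the matrices, of which 6 had counts enough for the zone test. Itgb3, the other main partner of alpha v, was higher in the IZ (log2 fold change 2.19 ± 0.37, adjusted p = 3.59e-05), at 5.27, 2.39 and 2.42 CPM in the RZ and 24.0, 18.3 and 19.8 CPM in the IZ. The summed platelet markers were at 179.2, 137.3 and 170.8 CPM in the RZ and at 875.2, 760.0 and 707.2 CPM in the IZ. Their part in the level of Itgb3 was not tested. Itgb7 (1.86 ± 0.42) and its leukocyte partner Itga4 (1.32 ± 0.41) were also higher. Itgb6, an epithelial partner of alpha v, was lower (-2.27 ± 0.38), from 9.03, 10.8 and 7.66 CPM to 4.01, 2.13 and 1.45 CPM, and Itga9 was lower by a smaller step (-0.62 ± 0.16). Itga1 was not called.

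The ligands and the intracellular partners of the integrins gave the setting. Of 36 ligand genes 30 were tested between IZ and RZ, and 18 were higher and 5 lower, with a median log2 fold change of 0.64 (26.8% of all genes were higher and 27.0% lower, with a median of 0.05). Spp1, which encodes osteopontin, rose by 5.83 ± 0.28 and was at 2713, 2700 and 1773 CPM in the IZ against 74.5, 17.9 and 18.1 CPM in the RZ. Fn1, the fibronectin bound by Itga5 and Itgav products, rose by 3.19 ± 0.16, Thbs1 (thrombospondin) by 3.05 ± 0.20 and Col1a2 (collagen I) by 2.71 ± 0.17. Vtn, which encodes vitronectin, fell by 1.24 ± 0.17 on the log2 scale, the laminin chains Lamb2 and Lama5 by 1.05 ± 0.15 and 0.83 ± 0.16, and Icam2 by 0.95 ± 0.18. Fn1 was already at 691.5, 1334 and 1175 CPM in BZ2 against 216.8, 352.2 and 293.3 CPM in the RZ, and 14 of the 30 ligands were called higher there, beside 4.21% of all genes.

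Of 45 adaptor and signalling genes 43 were tested, and 19 were higher and 11 lower in the IZ, with a median of 0.24. The share of this list that was lower is near the 27.0% of all genes. The highest were Fermt3 (2.58 ± 0.25), the kindlin of blood cells, Rac2 (1.91 ± 0.18), a GTPase of blood cells, Skap2 (1.80 ± 0.22), an adaptor of leukocytes, and Tns3 (1.68 ± 0.22), a tensin. The lowest were Itgb1bp2 (-3.41 ± 0.25), the muscle protein melusin that binds the beta 1 tail, Dmd (-1.76 ± 0.18), which encodes dystrophin, Lims2 (-1.66 ± 0.17) and Parvb (-1.25 ± 0.16), partners of integrin-linked kinase. Itgb1bp2 went from 268.0, 261.5 and 229.2 CPM in the RZ to 70.3, 17.9 and 20.5 CPM in the IZ, and its difference from Itga7 was not tested.

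Genes with the most similar profile were sought over the 20 quintiles of the 4 sections, on log2(CPM + 1), as a description. The points share libraries and the gradient of cardiomyocyte content, so high values were common. Itgb1 was nearest to Col5a2 and Col1a2 (Pearson r 0.992 and 0.991), Itga11 to Olfml2b and Thbs2 (0.969 and 0.956), and Itgb2 to Tcirg1 and Tgfbi (0.983 and 0.982). Itgam was nearest to Cyfip1 and Hmox1 (0.978 and 0.977), Itgax to Glipr1 and Tmem167 (0.978 and 0.964), and Itgav to Ddost and Cd63 (0.991 and 0.989). Itga5 was nearest to Ssr2 and Rack1 (0.984 and 0.982), Itgb5 to Mtch1 and Slc44a2 (0.984 and 0.981), and Itga7 to Adamtsl5 and Atp1b1 (0.976 and 0.966). Itga6 had no close match, its highest values being 0.853 with Srgn and 0.832 with Snrpd3.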

How the data were processed

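Fresh-frozen hearts were profiled with Visium, 1 section per heart. Per the file headers and the methods, the authors mapped and counted reads with Space Ranger 1.3.1 and deposited UMI counts per gene and spot, with a flag for spots under tissue. The labels name mm10 whereas the methods name another reference, so gene coordinates are given only for the promoters. Spots flagged as tissue were kept where they held 500 or more UMIs and 250 or more genes, with mitochondrial UMIs making up no more than 50%, and 13 mitochondrially encoded genes were left out of levels (CPM). UMIs were summed per section and zone, or per tercile of IZ spots. They were tested with edgeR 4.0.16 (TMM, quasi-likelihood test, section as a block, Benjamini-Hochberg adjustment, threshold 0.05). The fit was also run on simulated sums without a section effect, which cannot test the block. DESeq2 1.42.0 was an alternative. Replicates are hearts. Levels of single sections carry exact Poisson intervals (95%), which cover counting error only. Folds between sections were counted over genes that reached 10 CPM in any section. All 10 subunits were named, with other integrin genes past the threshold, the 4 highest and 4 lowest ligand and adaptor genes, and the 2 genes of highest r among those with a mean of at least 20 CPM. Members and lists were chosen with earlier results of these data known. The study names the zones, whereas the limits used here on cardiomyocyte share and steps are those of the present processing. Spots outside tissue were used only as stated below.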

Additional observations from a re-analysis of the deposited data

Results flagged for a closer look

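In the section labelled male, 623 spots that are not marked as tissue also held UMIs, and 8 subunits were above their control level there beyond the counting intervals. The share of all genes of which this holds was not counted. These subunits were at 201.0 CPM for Itga5, 17.5 CPM for Itga11, 113.5 CPM for Itgav, 73.6 CPM for Itgam, 17.9 CPM for Itgax, 502.5 CPM for Itgb1, 161.5 CPM for Itgb2 and 256.2 CPM for Itgb5. The kept spots of that section had 126.4 CPM of Itga5, 23.7 CPM of Itgam and 87.0 CPM of Itgb2. These spots entered no comparison.

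Of the log2 CPM ratios, 5 had 1 sign at 3 dpi and the other in both 5 dpi hearts, and these differences between time points were not tested. How often the sign turns so among all genes was not counted. In BZ2 against RZ, Itga11 was at -0.46 at 3 dpi and at 1.52 and 0.57 at 5 dpi, and Itgam at 1.15 against -0.51 and -0.39. The other ratios at 3 dpi were near 0: Itgb1 between terciles by fibroblast markers (0.016), and Itgav (0.041) and Itgb2 (0.055) between terciles by endothelial markers.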

How the results depend on the processing

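All 9 calls between IZ and RZ were kept under each of the 13 alternatives run. Over the 6 fitted comparisons, 606 values of single subunits under an alternative kept their direction and call, 39 kept the direction and were no longer called, 8 became called and 27 turned in sign. The lost calls were 16 between BZ2 and RZ, 12 by macrophage markers, 7 by fibroblast markers and 4 between IZ and BZ2. Of these 27, Itgax between terciles by macrophage markers (-0.43 in IZ spots below the median cardiomyocyte share) was a call of the report, and the other values were not called before or after. Those spots and the fits with mitochondrial genes kept in were chosen after seeing the data. The cause of each change was not tested. Zones and terciles of 1 heart were paired by the block. Leukocyte chains outside the IZ rest on few UMIs.

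Counts that moved were, between BZ2 and RZ, 56 genes and 0 subunits without the section block, 158 to 705 genes and 0 to 1 subunit without 1 section, and 1469 and 364 genes at the lower and the higher zone limit. Between IZ and BZ2 they were 2130 to 2926 genes without 1 section. By macrophage markers they were 1430 genes and 4 subunits with DESeq2, 1435 genes without the block, and 722 genes and 4 subunits below the median cardiomyocyte share. By fibroblast markers they were 127 genes and 1 subunit with DESeq2, 698 genes with no filter on low counts, 0 genes and 0 subunits without the block, and 298 to 810 genes without 1 section. By endothelial markers they were 23 genes with DESeq2, 316 genes and 2 subunits with no filter on low counts, 6 genes without the block, 26 to 182 genes and 0 to 1 subunit without 1 section, and 1 subunit with quintiles of IZ spots.

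For infarcted against control sections, the genes higher and lower were 1461 and 1022 with TMM, 915 and 304 among genes at 50 CPM or more (5 subunits higher), and 3644 and 971 at 1.5-fold, with 747 lower with no filter on low values. For 5 dpi against 3 dpi they were 53 and 11 at 50 CPM or more (0 subunits higher), 282 and 131 with no filter, 272 and 226 at 1.5-fold, and 110 to 211 and 80 to 290 without 1 of the 5 dpi sections.

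Log2 fold changes that turned in sign without 1 section had these ranges: Itga6 -0.23 to 0.17 (IZ against RZ), Itgam -0.74 to 0.45 and Itgb2 -0.29 to 0.62 (BZ2 against RZ), Itgb5 -0.085 to 0.39 (IZ against BZ2), Itgb5 -0.14 to 0.063 and Itga11 -0.0039 to 0.15 (macrophage markers), Itga6 -0.11 to 0.016 and Itgb1 -0.044 to 0.0098 (fibroblast markers). By endothelial markers they were Itgax -0.16 to 0.27, Itga6 -0.15 to 0.25, Itga7 -0.19 to 0.31, Itga5 -0.033 to 0.11, Itga11 -0.23 to 0.0082 and Itgb5 -0.099 to 0.040. Under other settings, Itga6 was at -0.038 (IZ against RZ, higher zone limit), Itgb1 at -0.050 and Itgb5 at -0.15 (IZ against BZ2, lower zone limit), and Itgav at -0.15 and Itgb5 at 0.32 (macrophage markers, below the median cardiomyocyte share). Itgb1 was at 0.0097 with quintiles by fibroblast markers. By endothelial markers, Itga6 was at -0.014 with no filter on spots, and Itga11 was at 0.16, Itgav at 0.0072, Itgb5 at 0.021 and Itga6 at -0.20 with quintiles.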
